A study of Mus musculus with 8 samples.

Results

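Glycolysis, lactate handling and the entry of pyruvate into mitochondria were examined gene by gene in d6PGCLCs and in E12.5 PGCs. The members were 35 genes chosen by function, with earlier results of these data known, and matched by Entrez identifier to a table of 21950 genes. Of these, 32 were analysed, while Hk1, Pfkfb2 and Eno3 were not analysed here. PGCs are the embryonic precursors of the germ line, and PGCLCs are cells of that kind induced in culture from pluripotent cells. The d6PGCLCs came from 1 BVSC-iPSC line, which carries Blimp1-Venus and Stella-ECFP reporters. They were collected at day 8 of culture, 6 days after their induction from epiblast-like cells. The protocol sorted cells carrying either both reporters or SSEA1 and integrin β3 together, and which sort was used for these pools is not certain. The E12.5 PGCs were cells positive for SSEA1 and integrin β3, sorted from female gonads of inbred C57BL/6J fetuses. Each group had 4 pools from independent experiments. The groups differed in developmental stage, in genetic source and in growth in culture or embryo, and possibly in sorting markers. The parts of these cannot be told apart.

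The question put to the data was how far the transcripts for each step of sugar breakdown differ between the cultured cells and the later, gonadal PGCs. Glycolysis turns glucose into pyruvate in the cytosol. Lactate dehydrogenase can turn pyruvate into lactate, which leaves the cell through monocarboxylate transporters. Alternatively, the mitochondrial pyruvate carrier brings pyruvate to the pyruvate dehydrogenase complex, which makes acetyl-CoA and is switched off by the pyruvate dehydrogenase kinases. Many of these steps are run by several isozymes from separate genes, which differ in kinetics and in the tissues that use them. Early mouse PGCs are known to rely on a different balance of glycolysis and oxidative metabolism from that of pluripotent cells.

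The libraries held between 7991437 and 12024841 counted reads, and 3 counts corresponded to between 0.249 and 0.383 CPM (counts relative to the TMM-scaled library size). Such floors cover counting error only, since PCR copies cannot be recognised. All 9 germ cell markers were detected in every library, and their summed level was 2510 to 2940 CPM in d6PGCLCs while it was 3470 to 4220 CPM in E12.5 PGCs. Of these, 4 were higher and 3 lower in d6PGCLCs. Among the lower ones were Dazl (37.7 CPM and 1262 CPM) and Ddx4 (35.5 CPM and 760.4 CPM), which mark later germ cells. Markers of most other cell types were low. The summed levels were 0.747 to 13.1 CPM and 2.89 to 6.31 CPM for 9 gonadal supporting and stromal markers, and 0.509 to 2.3 CPM and 0.645 to 33.4 CPM for 5 erythroid markers, in d6PGCLCs and E12.5 PGCs, respectively. Of these, Col1a1 was higher in d6PGCLCs, and Wt1, Gata4, Wnt4 and Pdgfra of the gonadal markers and Hbb-y and Hba-a2 of the erythroid markers were lower. The 6 macrophage markers summed to 1.08 to 3.06 CPM in d6PGCLCs and to at most 0.737 CPM in E12.5 PGCs, with Csf1r making up most of the former, while Adgre1 and Aif1, which define macrophages, had 0 counts in every library. The 6 endothelial markers (40.6 to 56.1 CPM and 32.3 to 53.9 CPM), the 5 epiblast-like markers (20.4 to 35.2 CPM and 22.3 to 27.1 CPM) and the 6 fibroblast or mesoderm markers (0.332 to 6.79 CPM and 1.53 to 5.05 CPM) overlapped between the groups in their sums, but not in each gene. Of these, 1 endothelial marker (Cdh5) and 1 epiblast-like marker (Dnmt3b, most of its sum in d6PGCLCs) were higher, and 3 epiblast-like (Fgf5, Pou3f1 and Sox3) and 3 fibroblast or mesoderm markers (Twist1, T and Mesp1) lower. The part of other cells in the results was not tested. In bulk RNA, fewer cells with a transcript and less of it per cell cannot be told apart.

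Most members were higher in d6PGCLCs. They were chosen with earlier results of these data known, so that the shares below describe the set and do not test it. With edgeR's quasi-likelihood test and Benjamini-Hochberg adjustment over all genes, 25 of the 32 members (78.1%) had an adjusted p of at most 0.05 and were higher, against 16.1% of all genes. Only Pdk3, Pdhb and Mpc2 were lower (9.38% of members), against 15.4% of all genes. Ldhb, Pdk2, Dlat and Mpc1 did not pass the test. Each of the 32 members had a mean of at least 5 counts, and among all 12368 genes with that many counts 27.2% were higher and 25.2% lower. The median log2 fold change of d6PGCLC over E12.5 PGC was 0.832 over the members and 0 over all genes. With a log2 fold change of at least 2 as a second threshold, 7 members were higher (Ldha, Slc16a3, Aldoc, Pfkl, Slc2a3, Eno2 and Tpi1), against 3.24% of all genes. None was lower by as much, against 3.37% of all genes, and the lowest log2 fold change of a member was -1.15. DESeq2 gave the same counts of 7 and 0. The count of higher members was 6 without d6PGCLC replicate 1 or E12.5 PGC replicate 1, and 8 without d6PGCLC replicate 3. It was also 6 with a prior count of 2, with a filter on low counts or at an adjusted p of at most 0.01. The 4 libraries of the groups did not overlap for 27 members higher in d6PGCLCs and for 1 lower, against 15.4% and 14.8% of all genes.

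**Figure D1:**
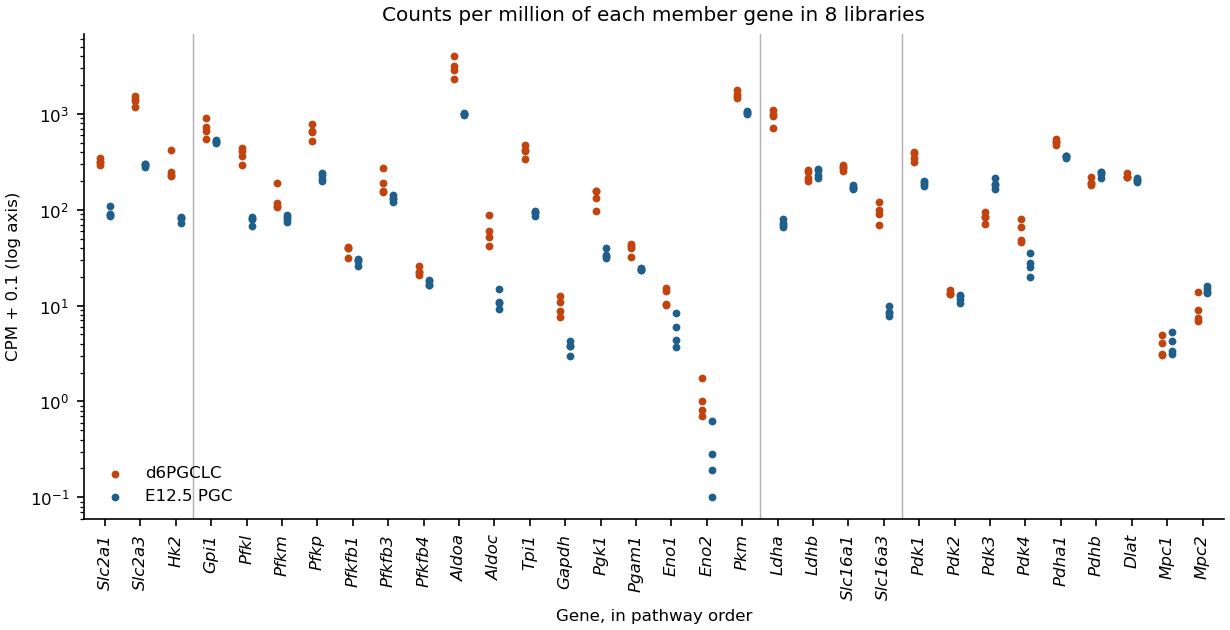
CPM of the 32 members in each library, with 0.1 added, on a log axis. Each point is 1 library, d6PGCLCs are to the left and E12.5 PGCs to the right of each gene, and grey lines separate uptake, the glycolytic chain, lactate and pyruvate entry. Points of the groups are apart for Ldha and Slc16a3 and overlap for Ldhb, Pdhb, Mpc1 and Mpc2.

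**Figure D2:**
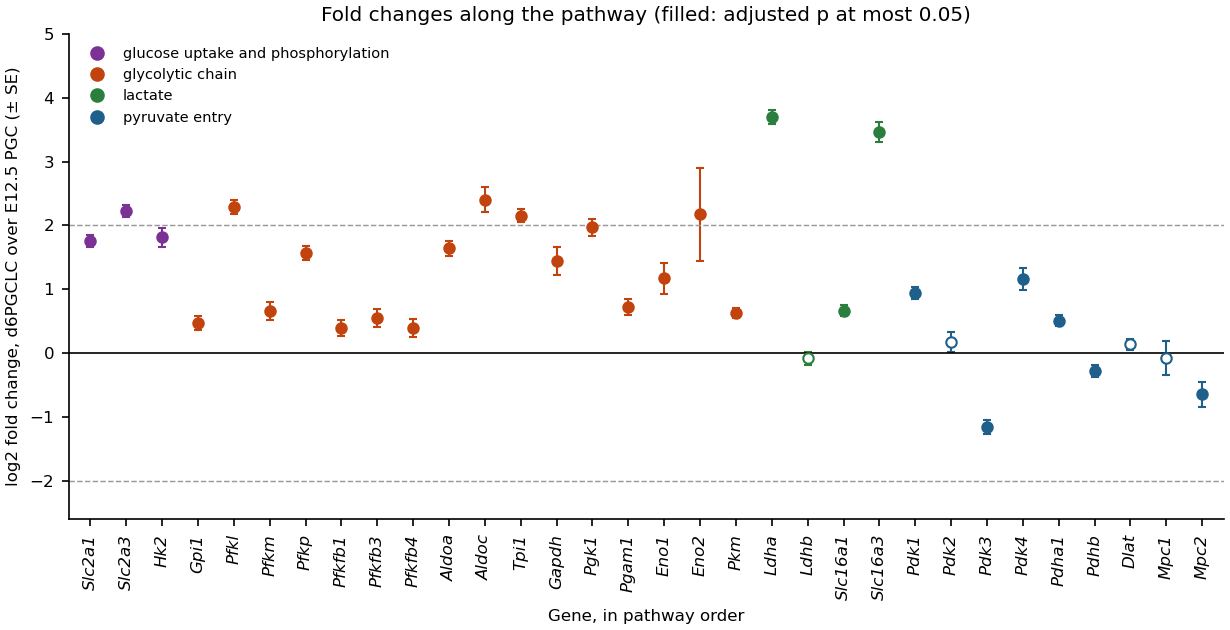
Log2 fold change of d6PGCLC over E12.5 PGC with its standard error for each member, from edgeR. Filled points had an adjusted p of at most 0.05 and dashed lines mark log2 fold changes of 2 and -2. Members of uptake and of the glycolytic chain lie above 0, and those of pyruvate entry lie on both sides of it.

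The 3 members for glucose uptake and phosphorylation were all higher in d6PGCLCs. Slc2a3, the gene of the high-affinity glucose transporter GLUT3, had 1347, 1180, 1427 and 1533 CPM in the d6PGCLC libraries and 301, 277, 289.8 and 303 CPM in the E12.5 PGC libraries. The lowest d6PGCLC library was far above the highest E12.5 PGC library. The log2 fold change was 2.23 (SE 0.0884, adjusted p = 1.19e-13). Slc2a1, which encodes the widely expressed transporter GLUT1, had a mean of 315 ± 20.2 CPM over the d6PGCLC libraries, against 93.3 ± 10.6 CPM over those of E12.5 PGCs (SD, n = 4 in this and the following pairs), a log2 fold change of 1.76 (adjusted p = 9.63e-12). Hk2, the hexokinase that traps glucose in the cell by phosphorylation, was at 281 ± 96.1 CPM and 79.7 ± 4.76 CPM, a log2 fold change of 1.82 (adjusted p = 5.68e-09). Hk2 in d6PGCLC replicate 1 stood at 424 CPM, while the other 3 d6PGCLC libraries ranged from 222 to 245 CPM. Without that library its log2 fold change was 1.55. Per kilobase of exon, the summed level of both transporters was 306 ± 21.9 RPKM in d6PGCLCs and 74.1 ± 2.32 RPKM in E12.5 PGCs, a ratio of 4.13.

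All 16 members of the glycolytic chain that were analysed were higher in d6PGCLCs, with log2 fold changes from 0.395 to 2.40 and a median of 1.31. No member of the chain was lower, and none was lower at an unadjusted p under 0.05. The differences were unequal along the chain. They were small for Gpi1 (0.47, SE 0.112), the isomerase after hexokinase, and for Pkm (0.63, SE 0.0821), the pyruvate kinase gene that ends the pathway. Those of the 3 bifunctional Pfkfb genes, Pfkm and Pgam1 were of similar size (0.40 to 0.72), and those of the other 9 members were between 1.17 and 2.40.

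Phosphofructokinase commits sugar to glycolysis, and its liver-type, muscle-type and platelet-type subunits are encoded by Pfkl, Pfkm and Pfkp. Pfkl had 446, 360.4, 293 and 414 CPM in the 4 d6PGCLC libraries, against 80.0, 67.2, 79.3 and 83.5 CPM in the 4 E12.5 PGC libraries, with no overlap. Its log2 fold change was 2.29 (SE 0.114, adjusted p = 3.43e-12). Pfkp, the subunit gene with the highest level of the 3 in both groups, was at 656 ± 108 CPM and 221 ± 20.1 CPM (log2 fold change 1.57). Pfkm differed least, with 131 ± 38.9 CPM and 82.1 ± 5.91 CPM (log2 fold change 0.67, adjusted p = 0.000754). In d6PGCLC replicate 1 Pfkm was at 189 CPM, above the 107 to 117 CPM of the other 3, and without that library its log2 fold change was 0.44.

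The bifunctional enzymes that make and remove the activator of phosphofructokinase showed small differences. Pfkfb3, whose product mostly makes the activator, was at 193 ± 55.2 CPM and 131 ± 8.72 CPM (log2 fold change 0.55, adjusted p = 0.00287). In d6PGCLC replicate 1 it stood at 272 CPM, while the other 3 ranged from 151 to 192 CPM, and without that library its log2 fold change was 0.35. Pfkfb1 (log2 fold change 0.40, adjusted p = 0.0199) and Pfkfb4 (log2 fold change 0.40, adjusted p = 0.0352) were near the threshold. The highest adjusted p when 1 library was left out was 0.0676 for Pfkfb1 and 0.134 for Pfkfb4. Pfkfb1 lost its call without d6PGCLC replicate 2, 3 or 4 or E12.5 PGC replicate 1, and with a length offset. Pfkfb4 lost its call without d6PGCLC replicate 3 or 4 or any 1 E12.5 PGC library, and with library-size or upper-quartile scaling.

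Aldolase and triose phosphate isomerase split the sugar and interconvert the resulting trioses. By uniquely mapped reads, Aldoa was the most abundant member in d6PGCLCs, whereas Pkm was in E12.5 PGCs (531 RPKM for Aldoa and 659 RPKM for Pkm). Members with many copies elsewhere, described below, cannot be ranked against them. Aldoa was measured at 3094 ± 721 CPM in the cultured cells and 993 ± 19.9 CPM in the embryonic cells (log2 fold change 1.64, adjusted p = 5.58e-10). By the mean level of uniquely mapped reads per kilobase over all 8 libraries, Aldoa ranked 19 and Pkm 29 among all genes of the table. Aldoc, the aldolase gene best known from the brain, had 87.4, 59.6, 41.6 and 51.9 CPM in the 4 d6PGCLC libraries, against 10.5, 10.7, 14.9 and 9.03 CPM in the 4 E12.5 PGC libraries. Every d6PGCLC library was above every E12.5 PGC library, and the log2 fold change was 2.40 (SE 0.195, adjusted p = 4.01e-09). Tpi1 had 478, 424, 338 and 411 CPM in the 4 d6PGCLC libraries, against 86.2, 92.6, 95.6 and 96.7 CPM in the 4 E12.5 PGC libraries. The groups were again far apart, with a log2 fold change of 2.15 (SE 0.0995, adjusted p = 1.2e-12).

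Gapdh, Pgk1, Pgam1 and Eno1, which encode the enzymes of the payoff phase before pyruvate kinase, had fewer reads than the neighbouring steps. Only uniquely mapped reads were counted, and many stretches of these transcripts also occur elsewhere. Of all windows of 100 bases in a reference transcript, 78.05% for Gapdh, 67.03% for Pgk1, 59.02% for Eno1 and 39.74% for Pgam1 also occurred in transcripts of other genes. For Gapdh these were 89 other genes, 82 of them pseudogenes. The levels of these 4 genes are therefore not comparable with those of other genes, and reads of their copies could not be separated in full. Within these limits, Gapdh was at 9.86 ± 2.19 CPM and 3.62 ± 0.554 CPM (log2 fold change 1.44). Pgk1 was at 135 ± 27.1 CPM and 34.3 ± 3.98 CPM (1.97), Pgam1 at 39.4 ± 5.20 CPM and 23.8 ± 0.683 CPM (0.72), and Eno1 at 12.4 ± 2.63 CPM and 5.49 ± 2.10 CPM (1.17). Of the 25 members with under 10% of windows shared, 19 were higher and 3 lower. Eno2, the neuronal enolase gene, was close to the detection limit, with 13, 7, 11 and 5 counts in d6PGCLCs and 0, 5, 2 and 1 counts in E12.5 PGCs. The count of 0 in E12.5 PGC replicate 1 allows up to 0.374 CPM. The fitted log2 fold change of Eno2 was 2.17 (SE 0.726, adjusted p = 0.0132), and with a filter on low counts the gene was not tested. When 1 library was left out, the log2 fold change of Eno2 ranged from 1.83 to 3.115, so that it did not always reach 2.

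The largest differences of all members were in lactate handling. Lactate dehydrogenase is a tetramer of the subunits encoded by Ldha, associated with making lactate, and Ldhb, associated with using it. Ldha had 989, 1089, 718 and 939 CPM in the 4 d6PGCLC libraries, against 66.1, 68.8, 71.8 and 79.9 CPM in the 4 E12.5 PGC libraries. The gap between the groups was many times their spread, and the ratio of the mean levels was 13.0 (log2 fold change 3.70, SE 0.109, adjusted p = 2.84e-15). Ldhb had 247, 261, 200.5 and 215 CPM in the 4 d6PGCLC libraries, against 216, 266, 231 and 261 CPM in the 4 E12.5 PGC libraries, so that the groups overlapped. Its log2 fold change was -0.08 (SE 0.10, adjusted p = 0.689). The main subunit gene was therefore a different one in each group. Ldha made up 77.1 ± 1.52% of the summed RPKM of both genes in d6PGCLCs and 19.8 ± 1.35% in E12.5 PGCs. The log2 ratio of Ldhb to Ldha was -1.75 ± 0.123 and 2.02 ± 0.126, respectively, a difference of -3.77 (two-sided exact permutation test, p = 0.0286, adjusted p = 0.0429 over 15 ratios). The smallest p that 4 libraries against 4 allow is 0.0286, and its adjusted value depends on how many of the 15 ratios reach it. Together, Ldha and Ldhb were at 623 ± 96.5 RPKM in d6PGCLCs and 187 ± 16.7 RPKM in E12.5 PGCs.

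Transport of lactate showed the same kind of difference. Slc16a3, which encodes MCT4, a monocarboxylate transporter known for lactate export from glycolytic cells, had 99.7, 69.2, 90.03 and 119 CPM in d6PGCLCs. In E12.5 PGCs it had 8.48, 9.79, 7.65 and 8.30 CPM. All d6PGCLC libraries were higher, with a ratio of the mean levels of 11.1 (log2 fold change 3.46, SE 0.155, adjusted p = 6.28e-13). Slc16a1, which encodes the broadly expressed MCT1, had 275, 291, 277 and 253 CPM in the 4 d6PGCLC libraries, against 180.2, 166, 170.4 and 173 CPM in the 4 E12.5 PGC libraries. It was higher in d6PGCLCs by a much smaller factor (log2 fold change 0.67, SE 0.0842, adjusted p = 1.75e-06). Slc16a1 remained the more abundant of both per kilobase in every library, but the share of Slc16a3 was 37.9 ± 6.57% in d6PGCLCs and 8.17 ± 0.939% in E12.5 PGCs (25.6% and 4.73% without division by length). The log2 ratio of Slc16a3 to Slc16a1 differed by 2.77 (two-sided exact permutation test, p = 0.0286, adjusted p = 0.0429).

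The promoters of these 4 genes are shown because the genes of each pair differed so unequally between the groups. The sequences are the bases before a RefSeq start site, 5′ to 3′ on the strand of the gene (GRCm38.p6). Capitals mark ACGTG on either strand, one form of the core of the hypoxia response element, including its overlaps that form CACGTG. The other form, GCGTG, is not marked. They lie at chr7:46845554-46845803 (plus strand) for Ldha, chr6:142507958-142508207 (minus strand) for Ldhb, chr11:120948817-120949066 (plus strand) for Slc16a3 and chr3:104638414-104638663 (plus strand) for Slc16a1. The last 14 bases of the Slc16a3 stretch lie in an exon annotated for another isoform.
Ldha: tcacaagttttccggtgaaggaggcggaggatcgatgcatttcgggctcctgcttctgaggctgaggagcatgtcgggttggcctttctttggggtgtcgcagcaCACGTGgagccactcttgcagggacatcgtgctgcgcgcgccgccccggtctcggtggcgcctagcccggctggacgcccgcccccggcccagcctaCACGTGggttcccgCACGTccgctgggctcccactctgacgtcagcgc
Ldhb: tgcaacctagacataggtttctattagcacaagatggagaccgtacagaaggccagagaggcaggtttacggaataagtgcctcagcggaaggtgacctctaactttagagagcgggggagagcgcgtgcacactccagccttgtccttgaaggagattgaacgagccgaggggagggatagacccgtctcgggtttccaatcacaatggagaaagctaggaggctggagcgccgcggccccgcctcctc
Slc16a3: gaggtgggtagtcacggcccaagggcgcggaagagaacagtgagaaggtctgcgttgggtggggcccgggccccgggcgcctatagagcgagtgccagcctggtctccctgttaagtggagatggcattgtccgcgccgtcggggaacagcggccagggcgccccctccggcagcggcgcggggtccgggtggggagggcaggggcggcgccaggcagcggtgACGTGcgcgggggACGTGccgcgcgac
Slc16a1: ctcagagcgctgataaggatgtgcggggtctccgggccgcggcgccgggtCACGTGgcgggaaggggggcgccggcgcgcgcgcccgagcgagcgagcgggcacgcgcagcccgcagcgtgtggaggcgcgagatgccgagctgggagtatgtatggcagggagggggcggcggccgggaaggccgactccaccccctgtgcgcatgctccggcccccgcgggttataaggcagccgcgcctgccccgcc
In these stretches the letters stood at 3 places for Ldha, 0 for Ldhb, 2 for Slc16a3 and 1 for Slc16a1. GCGTG on either strand stood at 0 places for Ldha, 1 for Ldhb, 0 for Slc16a3 and 2 for Slc16a1. Over windows of 300 bases, 250 before and 50 after a start site, 31 of the 32 members had a sequence, and 16 of the 31 (51.6%) held ACGTG in at least 1 window, against 23.1% of the 16539 genes of the table with a window. Per window the shares were 19 of 48 (39.6%) for members and 20.8% of 19954, and 19.6% of all 32851 promoter windows. By call, 13 of 24 higher, 2 of 3 lower and 1 of 4 members that did not pass the test held it. ACGTG contains a CpG, and the members' windows had a median of 20 CpG against 12 for the windows of all genes in the table. GCGTG stood in 21 of the 31 members (67.7%) and in 41.1% of the genes, and either form in 27 (87.1%) and 52.1%. CACGTG stood in 5 of the 31 members (16.1%) and in 9.02% of the genes. A match of letters is a description of the sequence and says nothing of a factor bound there.

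Of the 9 members of pyruvate entry, 3 were higher (33.3%), 3 lower (33.3%) and 3 did not pass the test, shares near the 27.2% and 25.2% of all genes that averaged 5 or more counts. The pyruvate dehydrogenase kinases, which phosphorylate and inactivate the complex, changed in composition. Pdk1, known as a hypoxia-responsive kinase gene, had 394, 349, 311 and 399 CPM in the 4 d6PGCLC libraries, against 186, 196, 177 and 197 CPM in the 4 E12.5 PGC libraries, without overlap (log2 fold change 0.94, SE 0.0928, adjusted p = 5.8e-08). Pdk3 had 94.2, 84.7, 70.9 and 83.6 CPM in the 4 d6PGCLC libraries, against 212, 163, 182 and 184 CPM in the 4 E12.5 PGC libraries. It was lower in every d6PGCLC library, with a ratio of the mean levels of 0.450 (log2 fold change -1.15, SE 0.105, adjusted p = 1.84e-08), and it was the only member lower without overlap. Pdk4, a kinase gene tied to fasting and fat use in other tissues, was at 60.3 ± 15.8 CPM and 26.9 ± 6.21 CPM (log2 fold change 1.16, adjusted p = 1.5e-05). Pdk2 was at 13.4 ± 0.586 CPM and 11.9 ± 1.02 CPM and did not pass the test (adjusted p = 0.53).

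In E12.5 PGCs Pdk3 made up 62.3 ± 3.89% of the summed RPKM of the 4 kinases and Pdk1 28.1 ± 2.11%. In d6PGCLCs the order was the opposite, with 54.5 ± 2.66% for Pdk1 and 28.3 ± 0.521% for Pdk3. The log2 ratio of Pdk3 to Pdk1 was -0.94 ± 0.0947 in d6PGCLCs and 1.15 ± 0.198 in E12.5 PGCs, a difference of -2.09 (two-sided exact permutation test, p = 0.0286, adjusted p = 0.0429). Their summed level was 119 ± 13.4 RPKM in d6PGCLCs and 119.6 ± 6.20 RPKM in E12.5 PGCs. Both the overlap of the sums and the order in E12.5 PGCs depend on the division by exonic length. Without it, the sums were 443 to 581 CPM in d6PGCLCs and 397 to 429.8 CPM in E12.5 PGCs, without overlap. Pdk1 then took 69.8% and Pdk3 16% in d6PGCLCs, and 45.8% and 44.8% in E12.5 PGCs. The bases before the RefSeq start sites of these 2 genes lie at chr2:71872974-71873223 (plus strand) and, without the 31 bases next to the start site, at chrX:93832182-93832400 (minus strand). They are shown for the same reason as those above and with the same capitals, and the last 20 bases for Pdk3 lie in an annotated exon.
Pdk1: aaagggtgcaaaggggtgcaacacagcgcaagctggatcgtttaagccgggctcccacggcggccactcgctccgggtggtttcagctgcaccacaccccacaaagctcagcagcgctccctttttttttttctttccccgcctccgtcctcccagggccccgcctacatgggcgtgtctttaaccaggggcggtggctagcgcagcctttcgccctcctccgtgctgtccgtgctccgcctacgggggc
Pdk3: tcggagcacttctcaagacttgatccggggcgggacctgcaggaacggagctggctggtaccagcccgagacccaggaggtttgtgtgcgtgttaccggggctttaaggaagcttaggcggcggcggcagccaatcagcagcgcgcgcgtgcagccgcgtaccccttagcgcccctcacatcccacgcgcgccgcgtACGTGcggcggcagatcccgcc
ACGTG stood at 0 places in the Pdk1 stretch and at 1 place in the Pdk3 stretch, and GCGTG at 1 and 3 places.

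The pyruvate dehydrogenase complex and the mitochondrial pyruvate carrier differed little. Pdha1, the gene of the catalytic alpha subunit and the target of the kinases, was at 511 ± 29.7 CPM and 359 ± 9.95 CPM (log2 fold change 0.51, adjusted p = 3.27e-05). Pdhb, its beta subunit gene, was at 196 ± 17.4 CPM and 237 ± 16.2 CPM, with overlap (log2 fold change -0.28, adjusted p = 0.0218). Its call was lost in 5 of the 8 fits that left out 1 library, with an adjusted p of up to 0.0806. Dlat, the acetyltransferase core, was at 225 ± 11.5 CPM and 204 ± 8.95 CPM and did not pass the test (adjusted p = 0.266). Mpc2, a subunit of the carrier, was at 9.19 ± 3.17 CPM and 14.5 ± 1.07 CPM (log2 fold change -0.65, adjusted p = 0.0163), and d6PGCLC replicate 2 at 13.7 CPM lay within the range of the E12.5 PGC libraries. Its call was lost without d6PGCLC replicate 4 (adjusted p = 0.0602) or without E12.5 PGC replicate 3 (adjusted p = 0.0548). Mpc1, the partner subunit, had only 23 to 58 counts a library, and 19.72% of its windows were shared with other genes (3.71 ± 0.917 CPM and 3.92 ± 1.03 CPM). The summed RPKM of the 3 complex genes was 1.11 times, and that of both carrier genes 0.701 times, that in E12.5 PGCs.

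**Figure D3:**
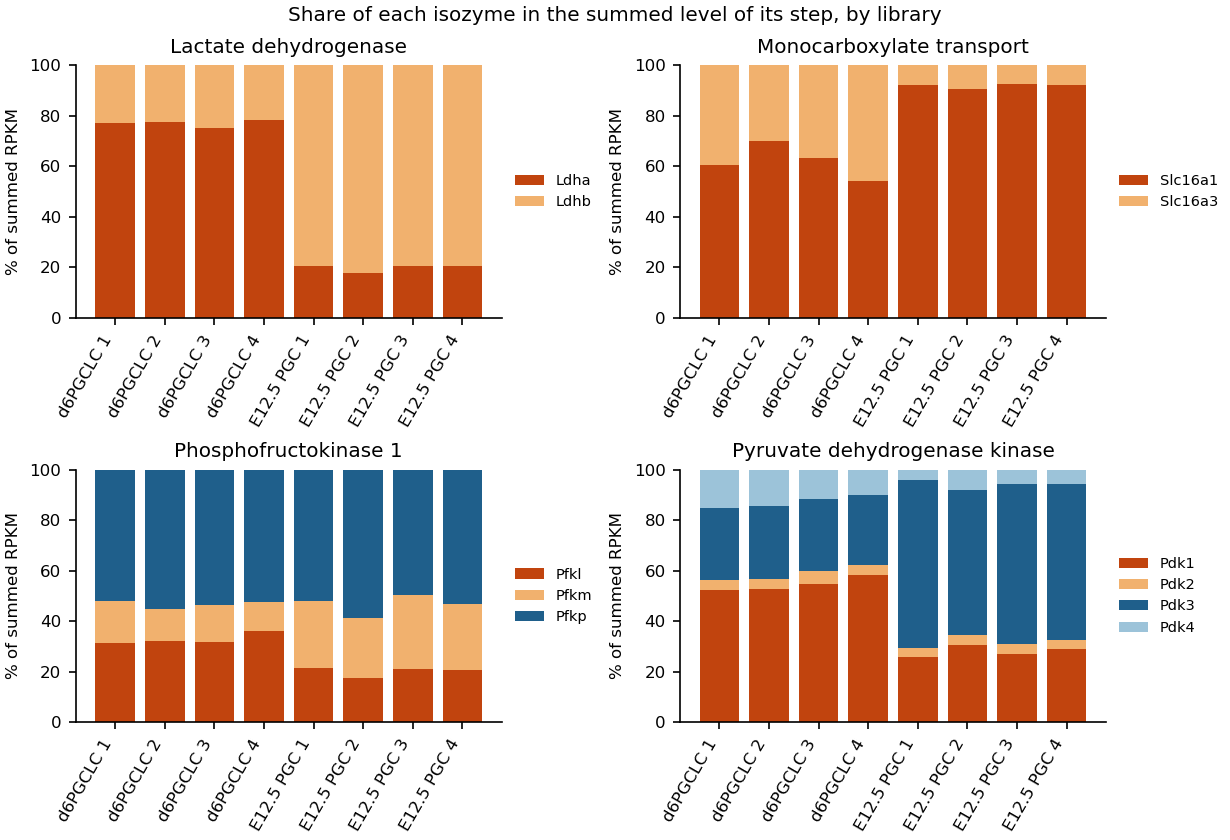
Share of each gene in the summed RPKM of its step, as stacked bars that reach 100% in each of the 8 libraries. Ldha holds the larger part of lactate dehydrogenase in the 4 d6PGCLC libraries and Ldhb in the 4 E12.5 PGC libraries. Pdk1 and Pdk3 change places in the same way, and the share of Pfkp is alike in both groups.

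Of 18 planned ratios between genes of the same step, 15 were tested, and the adjustment was over these 15. In 10 of them the 4 libraries of each group did not overlap, which gives the smallest p of the exact permutation test, 0.0286. Their adjusted p of 0.0429 rests on all 10 reaching that p together, so that whether 1 ratio passes depends on the others. Among the phosphofructokinase genes, the log2 ratio of Pfkm to Pfkl differed by -1.64 and that of Pfkp to Pfkl by -0.72. Pfkl took 32.8 ± 2.09% of the step in d6PGCLCs and 20.1 ± 1.87% in E12.5 PGCs, Pfkm 13.9 ± 2.03% and 26.4 ± 2.21%, and Pfkp 53.3 ± 1.38% and 53.5 ± 3.84%. The ratio of Slc2a3 to Slc2a1 differed by 0.46 and that of Aldoc to Aldoa by 0.77, though Aldoc stayed at 1.16 ± 0.103% of aldolase in d6PGCLCs and 0.695 ± 0.154% in E12.5 PGCs (1.88% and 1.12% without division by length). Within the pyruvate dehydrogenase complex, the ratios of Pdhb to Pdha1 (-0.79) and of Dlat to Pdha1 (-0.37) differed too, as did that of Pdk2 to Pdk1 (-0.76). The ratios within the Pfkfb family, Eno2 to Eno1, Pdk4 to Pdk1 and Mpc2 to Mpc1 overlapped between the groups. Without E12.5 PGC replicate 2, the ratio of Slc2a3 to Slc2a1 no longer passed (adjusted p = 0.0714 in the exact permutation test). That of Aldoc to Aldoa did not pass without any 1 of the d6PGCLC libraries (0.0779 to 0.0857), nor that of Pdk2 to Pdk1 without E12.5 PGC replicate 3 (0.0779). The ratios of Eno2 to Eno1 (0.0429 without E12.5 PGC replicate 2) and of Mpc2 to Mpc1 (0.039 without E12.5 PGC replicate 4) passed with 1 library fewer. The difference in the ratio of Eno2 to Eno1 depended on what was added to the counts. It was 1.17 with 0.5 counts, -0.0695 with 5 counts and 0.142 with 0.1 RPKM, so that its direction is not settled. A ratio within a library does not depend on how the libraries are scaled.

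The members also varied among the d6PGCLC pools. For the 28 members with a mean of at least 100 counts, the median coefficient of variation was 13.6% in d6PGCLCs and 6.73% in E12.5 PGCs, against 12% and 8.84% for all 8128 genes with as many counts. In d6PGCLCs, replicate 1 was the highest library for 16 of the 28 and replicate 3 the lowest for 20. The median deviation from the group mean was 0.117 (log2) in replicate 1 and -0.228 in replicate 3, while over all 8128 genes it was within 0.0141 of 0 in each d6PGCLC library. Aldoa ranged from 2309 CPM in replicate 3 to 4032 CPM in replicate 1, and Gpi1 from 551 to 912 CPM in the same libraries. Slc2a3 went against this, with its lowest d6PGCLC value in replicate 2. In E12.5 PGCs the median deviations were between -0.0494 and 0.0359. Of the members, 25 were higher without d6PGCLC replicate 1 and 23 without replicate 3.

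**Figure D4:**
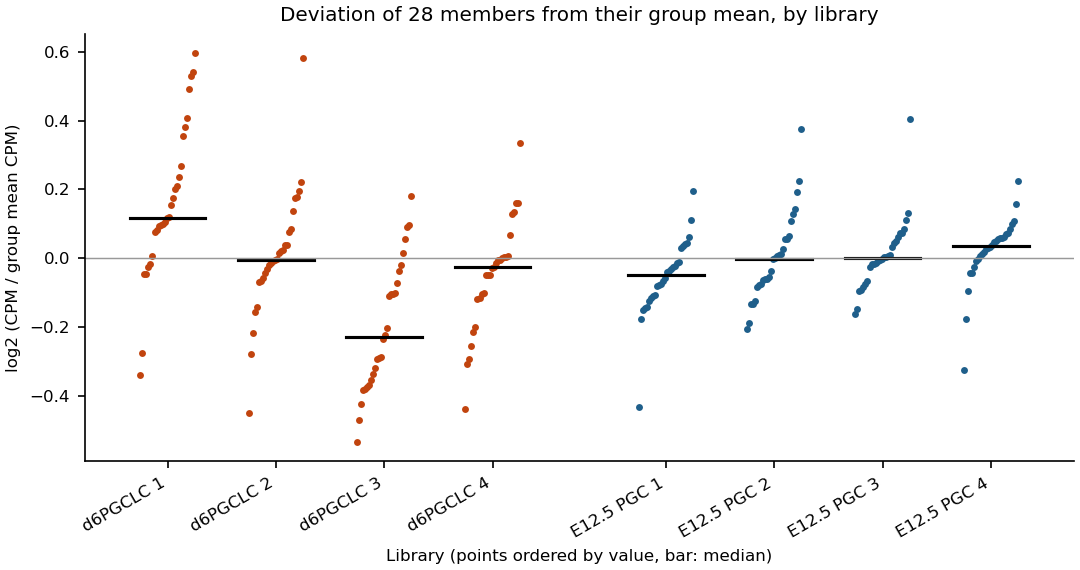
Deviation of the 28 members with a mean of at least 100 counts from their group mean, as log2 of CPM over the mean CPM of the group, for each library. Points are genes ordered by value and black bars are medians. The points of d6PGCLC replicate 1 lie mostly above 0 and those of replicate 3 mostly below it.

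The members lay on 15 chromosomes, with 7 of them on chromosome 6 and 4 on chromosome X. Tpi1, Eno2 and Gapdh fell within 406 kb of each other (chr6:124760053-125166467), and all 3 were higher in d6PGCLCs. Of the 20 other genes of the table that lie fully within this interval, 7 were higher and 3 lower, and their median log2 fold change was 0.292. Over all genes 16.1% were higher and 15.4% lower, and among those that averaged 5 or more counts 27.2% and 25.2%. An effect of position was not tested. On chromosome X, Pfkfb1, Pgk1 and Pdha1 were higher and Pdk3 was lower.

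Pathways that connect to glycolysis differed among themselves. The 11 lists were chosen by function, with earlier results of these data known. They had 122 genes in the table, of which 37 were higher (30.3%) and 24 lower (19.7%), and the median log2 fold change was 0.0801. Over all genes the shares were 16.1% and 15.4%. Among the 107 listed genes that averaged 5 or more counts, 36 were higher (33.6%) and 23 lower (21.5%), against 27.2% and 25.2% of all genes with as many counts. Of 12 further glucose transporter and glucose kinase genes, 4 were higher and 2 lower, and of the 7 with as many counts 4 and 1. Among them Slc2a12, a glucose transporter gene, was at 19.0 CPM in d6PGCLCs while it was 4.48 CPM in E12.5 PGCs (log2 fold change 2.09, SE 0.198, adjusted p = 3.16e-08). Of 12 other glycolytic enzymes, mostly isozymes of other tissues, 3 were higher and 0 lower (0 at an unadjusted p under 0.05, and 0 with DESeq2). The genes named in the rest of this paragraph were chosen after their values were seen. Of 8 other monocarboxylate transporter genes and chaperones, only Bsg, the chaperone that carries MCT1 and MCT4 to the cell surface, was higher (817 CPM and 466 CPM, log2 fold change 0.81, adjusted p = 5.58e-07). None was lower, with 1 at an unadjusted p under 0.05, 1 with the likelihood ratio test of edgeR and 0 with DESeq2. Of 7 genes of the shuttles that move cytosolic NADH equivalents into mitochondria, 6 were higher and 0 lower (0 at an unadjusted p under 0.05, and 0 with DESeq2). They included Got1, the cytosolic aspartate aminotransferase gene (log2 fold change 1.41), and Slc25a13, an aspartate-glutamate carrier gene (1.27). Of 9 genes of the hexosamine and serine branches, 6 were higher and 0 lower (0 at an unadjusted p under 0.05, and 0 with DESeq2), with Phgdh, the first enzyme of serine synthesis, at 1.93. Among the higher genes, Psat1 overlapped between the groups and lost its call without 1 library (adjusted p of up to 0.238).

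The pyruvate dehydrogenase list went the other way. Of 9 further genes of the complex, its phosphatases and its lipoylation, 0 were higher (0 at an unadjusted p under 0.05, and 0 with DESeq2) and 5 were lower, and the median log2 fold change was -0.443. The 5 were Pdp1, Pdha2, Lipt2, Pdhx and Pdpr. Pdp1, the phosphatase that reverses the action of the kinases, was at 16.7 CPM in d6PGCLCs while it was 63.0 CPM in E12.5 PGCs (log2 fold change -1.92, adjusted p = 4.01e-10). Pdpr, a regulatory subunit of that phosphatase, did not hold its call in every fit that left out 1 library (adjusted p of up to 0.134). The 13 citric acid cycle genes were close to the background, with 3 higher, 2 lower and a median of 0.0202. Not all of these calls held when 1 library was left out. The pentose phosphate pathway (14 genes, 3 higher and 5 lower), glycogen metabolism (16 genes, 4 and 5) and gluconeogenesis (7 genes, 3 and 1) were mixed. Of 15 regulators of glycolysis, 4 were higher and 4 lower (26.7% each), near the background. Hif1a, a subunit gene of the hypoxia-inducible factor, was lower (192 CPM and 290.5 CPM, log2 fold change -0.60, adjusted p = 1.91e-05), while Epas1, which encodes the alternative alpha subunit, was higher (36.8 CPM and 15.8 CPM, 1.21, adjusted p = 2.75e-07). Egln3, a prolyl hydroxylase gene that itself responds to that factor, was higher as well (215 CPM and 107 CPM, 1.00, adjusted p = 3.61e-08). These 3 and the genes named from the pyruvate dehydrogenase list were chosen after their values were seen.

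**Figure D5:**
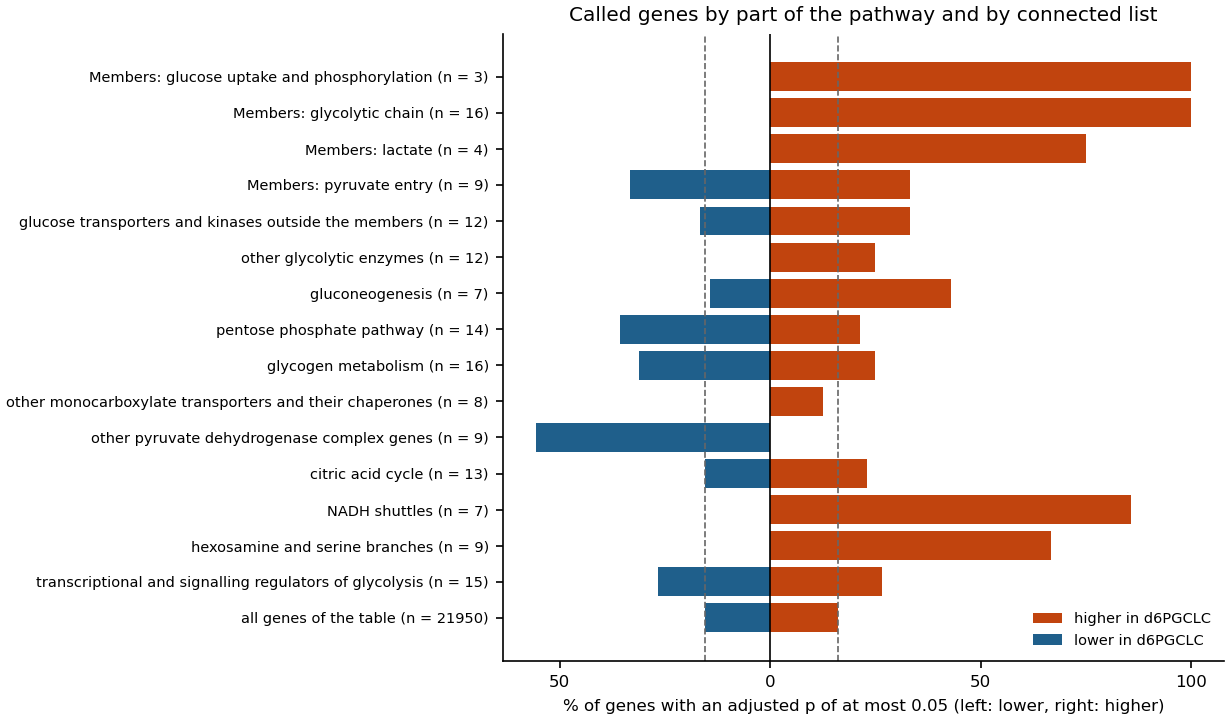
Share of genes with an adjusted p of at most 0.05 that were higher (right) or lower (left) in d6PGCLCs, for the 4 parts of the pathway, the 11 connected lists and all genes. Dashed lines mark the shares over all genes. The bars of uptake and of the glycolytic chain reach 100% on the right, and that of the other pyruvate dehydrogenase genes lies on the left alone.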

How the data were processed

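RNA-seq covered 8 libraries, 4 of each cell type and each from a pool of sorted cells, with a stranded poly(A) protocol and single-end reads. Per the deposited table and the methods of the study, the authors aligned reads to GRCm38 (mm10) with STAR, took an isoform at random for each gene, and counted uniquely mapped reads on its exons with QuasR. The values are counts as deposited by the authors, not normalized, beside the exonic length. Whether strand was used in counting is not given in the sources used here, so that antisense genes are uncertain. Of 21950 identifiers, 21907 had a RefSeq symbol.

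Counts were scaled with TMM and fitted with edgeR 4.0.16 in R 4.3.3 (glmQLFit and glmQLFTest) over all genes, without a filter, with cell type as the only term and Benjamini-Hochberg adjustment. SE is the standard error of the log2 fold change. CPM used TMM-scaled library sizes, and RPKM were CPM per kilobase of exon. Ratios of genes used 0.5 added counts and a two-sided exact permutation test. Shared windows of 100 bases came from GENCODE M21, and promoters from RefSeq.

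All members are accounted for. Values in every library are given for members with a log2 fold change of at least 2, and for both genes of a ratio that differed by at least 2, where the adjusted p was at most 0.05. Listed genes were named where they met the same limits with at least 100 counts on average; others are said to be chosen after their values were seen. The members and lists were chosen with earlier results of these data known. The alternatives tried were DESeq2 1.42.0, the likelihood ratio test, normalization by library size, RLE, the upper quartile or TMM without the members, filters on low counts, a prior count of 2, a length offset, stricter thresholds, other pseudocounts, a replicate block and leaving out each library. Sums of CPM without length and the GCGTG search were added after seeing the data. No pair of libraries of a group agreed within sampling noise, with a chi-square per degree of freedom of at least 3.19.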

Additional observations from a re-analysis of the deposited data

Results flagged for a closer look

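In 4 of 64 sets of 4 libraries (32 members in 2 groups), the highest or lowest library stood apart from the other 3 by Dixon's criterion, where chance gives about 3.2. Hk2 was at 424 CPM in d6PGCLC replicate 1 against 222 to 245 CPM in the other 3, and at 72.6 CPM in E12.5 PGC replicate 2 against 81.3 to 83.1 CPM. Pfkm was at 189 CPM in d6PGCLC replicate 1 against 107 to 117 CPM. Pfkfb1 was at 31.3 CPM in the same library against 39.6 to 40.5 CPM, and was low there, whereas Hk2 and Pfkm were high. No cause was tested.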

How the results depend on the processing

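No member changed direction under an alternative that was run except Mpc1. Mpc1 did not pass the test and ranged from -0.24 to 0.10 (log2) when 1 library was left out. Of 606 refits of a member's log2 fold change, 586 kept their side of the threshold. These leave out the test against a log2 fold change of 1 and the stricter adjusted p, where more calls were lost, as given below. The other 20 were calls lost for Pfkfb1, Pfkfb4, Pdhb and Mpc2. Between 23 and 25 members were higher, and between 1 and 3 lower, when 1 library was left out, with only Pdk3 lower without d6PGCLC replicate 4 or without E12.5 PGC replicate 3. At an adjusted p of at most 0.01, 1 member was lower. Against a log2 fold change of 1 (glmTreat), 11 members were higher and 0 lower, and 858 and 674 of all genes. With a log2 fold change of at least 2, counts over all genes were 464 higher and 383 lower with filterByExpr, 450 and 382 with a prior count of 2, and 435 lower with a CPM above 1 in at least 3 libraries, because low genes were left out or shrunken. A replicate block gave 25 members higher and 3 lower, and 3708 and 3562 of all genes. Whether the replicate numbers mark shared batches is not given in the sources used here. The correlations of same-numbered deviations were 0.273, 0.104, -0.0227 and 0.0352, and own numbers correlated best for 2 of 4, which does not settle it. With the replicate block, 0 of the isozyme ratios passed, because the smallest p of 4 sign flips is 0.125. Leaving out 1 library gave 9 to 11. Shares without division by length moved in 39 of 50 cases. Results of the connected lists moved in 30 of 627 refits. Of their genes called higher, Ldhd (adjusted p of up to 0.0944), Pck1 (0.118), Idh3b (0.074) and Psat1 (0.238) lost their call without 1 library. Of those called lower, Slc2a10 (0.209), Rpia (0.0705), Rbks (0.142), Phka2 (0.152), Sdha (0.0652) and Pdpr (0.134) did too. These genes were chosen by these values. Depth limits what can be said of Eno2, Mpc1 and the members with many copies.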
